A study of Mus musculus with 36 samples.

Results

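The ATP-binding cassette (ABC) transporter genes are described here in liver and in a visceral fat depot, epididymal white adipose tissue (eWAT), of mice on 3 diets. The members were the 50 protein-coding genes whose symbol is Abc, a letter a to g and a number, a rule on symbols alone. Of these, 39 stood among the 14052 genes of the liver count table and 40 among the 16690 genes of the eWAT count table, with 38 in both. Abcg8 was in the liver table only, and Abca4 and Abcg4 were in the eWAT table only. Abca12, Abca13, Abca14, Abca15, Abca16, Abca17, Abcb5, Abcc8 and Abcc12 were in neither table, which hold genes above a low expression limit.

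All libraries came from wild-type (WT) C57BL/6 male mice of the F0 generation, aged 24 weeks, that ate chow from weaning to 6 weeks of age. HFLF mice then received high-fat diet for 9 weeks and low-fat diet for 9 weeks, HF mice high-fat diet for 18 weeks, and LF mice low-fat diet for 18 weeks. Each diet has 6 libraries in each tissue, 36 in all. No transgene, deletion or drug is given for any group. The series text gives 4 to 6 per group. The labels do not say that each library came from a separate mouse, so the p-values measure the spread between these libraries.

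ABC proteins use ATP to move lipids, bile salts, drugs, heme or peptides across membranes, and a few members without a membrane part act on ribosomes. In hepatocytes, canalicular members secrete bile salts, phospholipid, sterols and conjugates into bile, basolateral members return conjugates to the blood, and Abca1 loads cholesterol onto nascent high-density lipoprotein. In fat, cholesterol exporters act in adipocytes and macrophages, and the peroxisomal member Abcd2 carries very long-chain acyl-CoA into peroxisomes for oxidation.

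The libraries held 11.7 to 23.3 M counts in liver and 8.94 to 31.2 M counts in eWAT. Levels are counts per M counts (CPM) normalised by TMM within a tissue, fold changes are log2 with standard errors, and a member is called changed at an adjusted p under 0.05 by edgeR's quasi-likelihood test over all genes of the table. Checked against markers, the liver table held 10 of 10 hepatocyte markers and 6 of 10 adipocyte markers, lacking Adipoq, Plin1, Lep and Retn. The eWAT table held 10 of 10 adipocyte and 10 of 10 hepatocyte markers. Summed levels of the hepatocyte markers on LF were 96130 to 119900 CPM (median 102400) in liver and 3036 to 7754 CPM (median 3838) in eWAT, and those of the adipocyte markers 113.5 to 186 CPM (median 157) and 30390 to 56230 CPM (median 46150). In liver, LF libraries 1 to 4 stood apart: the acute-phase gene Saa1 was at 1057 to 3778 CPM in them, against 28.3 and 15.3 CPM in LF libraries 5 and 6. All 15 acute-phase genes measured were lower in HFLF and in HF than in LF livers. None of the 15 was called lower in either, and 1 was called higher in HF, once LF libraries 1 to 4 were left out. In eWAT, the liver gene Alb was highest in LF libraries 3, 4 and 5, at 296, 162 and 666 CPM. The epididymal gene Crisp1 was at 218 CPM in LF library 3 and at most 7.05 CPM elsewhere, and its sum with Cst8 was next highest in HF library 1 and HFLF libraries 4 and 6. Calls against LF in liver are therefore also given without LF libraries 1 to 4, which leaves 2 LF libraries. Calls in eWAT are also given without these 6 libraries (LF 3, 4 and 5, HF 1, HFLF 4 and 6).

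Promoters are shown for 3 members described in the liver results, from RefSeq (GRCm38.p6), each from 250 bases before to 50 bases after the start site. Abcg5 and Abcg8 encode the partners of the exporter of cholesterol and plant sterols, lie head to head with start sites 110 bases apart, and share the 209 bases in capitals, printed for each gene on its own strand. For Abcb11, the bile salt export pump, capitals mark the only match to AGGTCA, the core letters bound by nuclear receptors, which reads TGACCT on this strand.
Abcg5, chr17:84682962-84683261, minus strand: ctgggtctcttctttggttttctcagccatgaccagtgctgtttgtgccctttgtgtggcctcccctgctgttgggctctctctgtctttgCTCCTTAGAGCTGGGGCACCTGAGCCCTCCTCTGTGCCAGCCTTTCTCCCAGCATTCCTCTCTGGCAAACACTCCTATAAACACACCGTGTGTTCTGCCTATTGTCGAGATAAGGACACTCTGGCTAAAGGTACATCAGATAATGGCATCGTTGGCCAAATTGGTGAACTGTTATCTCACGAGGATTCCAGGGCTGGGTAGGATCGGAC
Abcg8, chr17:84682871-84683170, plus strand: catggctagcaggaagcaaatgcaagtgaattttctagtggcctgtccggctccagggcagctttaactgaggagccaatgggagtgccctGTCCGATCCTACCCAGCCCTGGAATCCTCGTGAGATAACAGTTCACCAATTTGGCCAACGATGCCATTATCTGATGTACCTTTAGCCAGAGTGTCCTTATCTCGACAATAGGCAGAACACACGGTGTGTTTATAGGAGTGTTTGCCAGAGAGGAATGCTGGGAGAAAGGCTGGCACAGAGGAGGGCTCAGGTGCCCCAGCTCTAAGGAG
Abcb11, chr2:69342567-69342866, minus strand: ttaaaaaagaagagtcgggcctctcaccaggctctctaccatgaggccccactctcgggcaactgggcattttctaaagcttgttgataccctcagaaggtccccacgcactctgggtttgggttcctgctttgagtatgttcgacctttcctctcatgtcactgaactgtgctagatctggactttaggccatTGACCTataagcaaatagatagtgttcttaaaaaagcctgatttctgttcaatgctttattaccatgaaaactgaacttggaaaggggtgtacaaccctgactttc

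Windows were found for 38 of the 50 members. AGGTCA on either strand was present for Abcb6, Abcb11, Abcc2, Abcc10 and Abcg2, and in 16.3% of all 32851 windows. The repeats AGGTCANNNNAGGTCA, AGGTCANTGACCT and AGGTCANAGGTCA had no match in a member and stood in 0.0152%, 0.00913% and 0.0396% of all windows. The looser repeat GGTNNNNNNNGGTCA matched Abca1 alone (1.00% of all windows), and CACGTG, the E-box, matched Abca1, Abca8a, Abca8b, Abca15, Abcc4 and Abcf1 (7.15%). Both strands were searched, and AGGTCA stands inside each of the 3 repeats. A match is a run of letters and not a measured binding site.

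Per kilobase of exon, the most abundant members in LF liver were Abcb11 (139.7 CPM per kb), the peroxisomal transporter Abcd3 (71.8), the basolateral pump Abcc6 (51.3) and the canalicular conjugate pump Abcc2 (45.3). Abcb4, which flips phosphatidylcholine into bile, followed at 29.9, and Abcg5 and Abcg8 at 27.2 and 26.5 CPM per kb. The median over the 39 members was 8.30 CPM per kb, and the median over all liver genes 3.04. In LF eWAT Abcd2 led at 97.4 CPM per kb, followed by the ribosome-acting Abcf1 (30.2), Abcf2 (20.5) and Abcf3 (17.6). There the median was 4.61 over the 40 members and 3.86 over all genes.

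In HF livers the bile salt pump Abcb11 was lower, and the sterol exporters Abcg5 and Abcg8, the conjugate pump Abcc2 and peroxisomal transporters were higher, than in LF livers. Against LF, 15 members rose and 7 fell among the 39 in HF livers, where 34.8% of all genes were called (16.3% of all genes higher and 18.5% lower). The members' median log2 fold change was 0.17, against 0.00 over all genes. In HFLF livers 11 rose and 4 fell against LF, beside 22.6% of all genes called (10.2% of all genes higher and 12.4% lower), with medians of 0.07 and 0.00. HFLF against HF gave 2 higher and 2 lower members, beside 5.23% of all genes called (2.18% of all genes higher and 3.05% lower). These shares of all genes also stand beside the role, partner and marker counts in liver below. Without LF libraries 1 to 4, 3 members passed in HF against LF (2.11% of all genes), all lower: Abcb11 and Abca8b, and Abca8a, which did not pass with all libraries. In that fit 0 members passed in HFLF against LF by edgeR (0.185% of all genes). The libraries of HF and LF did not overlap for 8 of 39 members (11% of all genes), those of HFLF and LF for 2 (6.15%), and those of HFLF and HF for 4 (3.86% of all genes). Of 10 hepatocyte markers 1 rose and 4 fell, and of 12 macrophage markers 2 fell, in HF against LF livers. In the fit without LF libraries 1 to 4, 1 hepatocyte marker fell and none rose, and no macrophage marker passed. Of the 6 adipocyte markers measured in liver, 5 rose and none fell in HF against LF, with summed levels of 161 to 217 CPM (median 184) in HFLF, 145 to 394 CPM (median 197) in HF and 113.5 to 186 CPM (median 157) in LF livers. Among them the lipid droplet gene Cidec was at 142.5 and 76.6 CPM in HF libraries 1 and 4, against at most 14.2 CPM in LF. In LF livers the largest part of the sum was Pnpla2, at 85.7 to 136 CPM, against 96.4 to 138 CPM in HF. Adipoq, Plin1, Lep and Retn were not in the liver table, so this sum is no measure of adipocytes. Without LF libraries 1 to 4, 1 of the 6 passed, the lipase Lipe (1.10, adjusted p = 0.00259). The part of these cell markers in the members' differences was not tested.

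**Figure D1:**
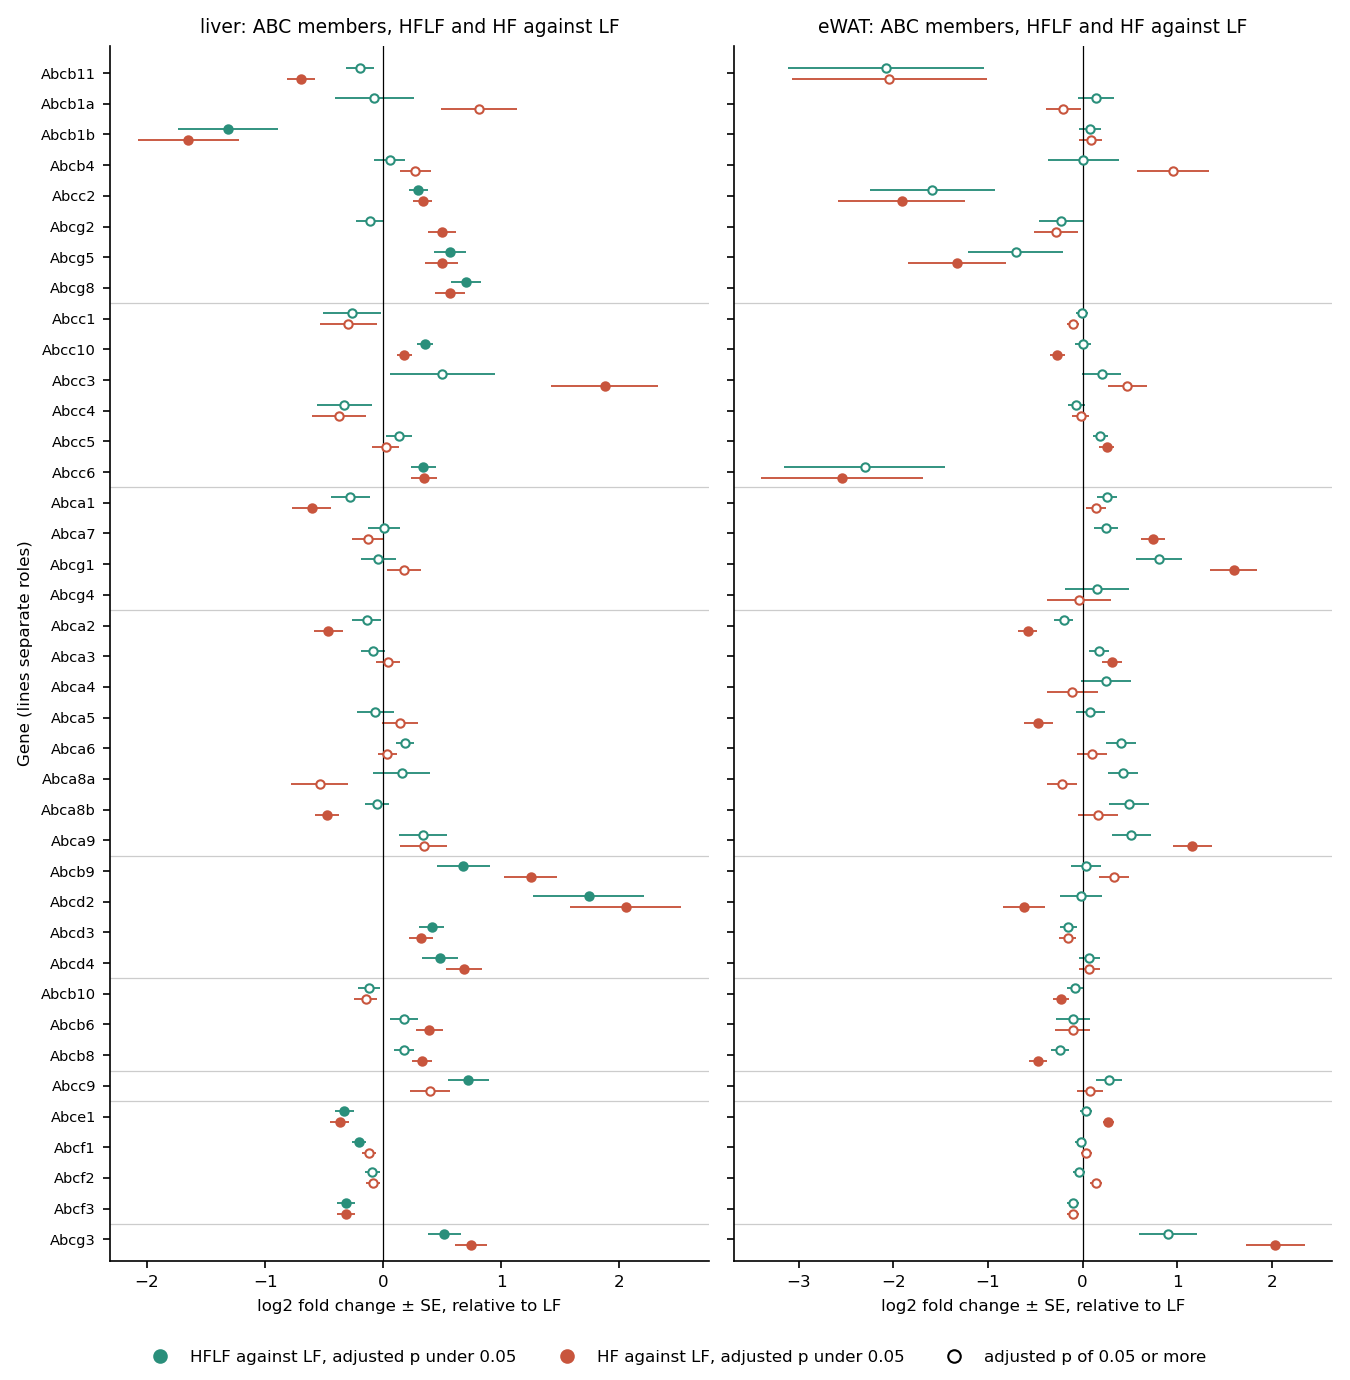
Log2 fold change with its standard error for the ABC members reported, relative to LF, in liver (left) and eWAT (right), with members grouped by role and separated by lines; filled points passed an adjusted p of 0.05. In liver Abcb11 lies left of 0 on HF while Abcd2, Abcd3, Abcd4 and Abcb9 lie right of it, and in eWAT no HFLF point is filled.

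Among the 8 canalicular and apical exporters, 4 rose and 2 fell in HF livers, and 3 rose and 1 fell in HFLF livers, relative to LF. Abcb11 ranged over 562 to 693 CPM (median 622) in HFLF, 357 to 525 CPM (median 441) in HF and 618 to 899 CPM (median 661.5) in LF livers. Every HF library lay below every HFLF and every LF library. The log2 fold change was -0.70 ± 0.12 (adjusted p = 0.000453) for HF against LF, and -0.58 (adjusted p = 0.0427) without LF libraries 1 to 4, among which libraries 1 and 2 were the highest of all. HFLF exceeded HF by 0.50 ± 0.12 (adjusted p = 0.0232). That call was lost without HF library 3 or 4 and kept in the other 10 single-library omissions. HFLF and LF differed by -0.20 ± 0.12 (adjusted p = 0.235).

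Abcg5 and Abcg8, whose shared promoter is printed above, were both higher in HFLF and in HF than in LF livers. Abcg5 was at 77.7 to 136 CPM (median 105) in HFLF, 91.0 to 129 CPM (median 98.6) in HF and 54.5 to 99.8 CPM (median 72.5) in LF livers. Its log2 fold change was 0.56 ± 0.14 (adjusted p = 0.00799) in HFLF and 0.49 ± 0.14 (adjusted p = 0.00999) in HF, against LF. Abcg8 was at 115 to 183 CPM (median 167.5) in HFLF, 126 to 168.5 CPM (median 151) in HF and 76.6 to 135 CPM (median 93.5) in LF livers. Against LF its log2 fold changes were 0.70 ± 0.13 (adjusted p = 0.00161) in HFLF and 0.57 ± 0.13 (adjusted p = 0.00296) in HF. For both genes LF libraries 5 and 6 lay above LF libraries 1 to 4, and LF library 5 reached into the HFLF and HF ranges. Without libraries 1 to 4 the Abcg8 values were 0.41 (adjusted p = 0.251) in HFLF and 0.27 (adjusted p = 0.351) in HF. Those of Abcg5 were 0.31 (adjusted p = 0.441) in HFLF and 0.24 (adjusted p = 0.484) in HF. Exons of the 2 genes overlap by 82 bases on opposite strands, and no source used here states which strand was counted.

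Abcc2, which exports glucuronide and glutathione conjugates into bile, was at 411 to 544 CPM (median 464) in HFLF, 466 to 508 CPM (median 488) in HF and 332 to 446 CPM (median 392) in LF livers. Its HF and LF libraries did not overlap. The log2 fold change against LF was 0.29 ± 0.08 (adjusted p = 0.0148) for HFLF and 0.33 ± 0.08 (adjusted p = 0.00455) for HF. They were 0.16 (adjusted p = 0.497) for HFLF and 0.20 (adjusted p = 0.305) for HF without LF libraries 1 to 4. Abcg2, an exporter of urate and many drugs, showed another order, with 40.9 to 64.9 CPM (median 53.7) in HFLF, 63.3 to 109.6 CPM (median 77.2) in HF and 54.2 to 62.8 CPM (median 58.9) in LF livers. All HF libraries exceeded all LF libraries and 5 of the 6 HFLF libraries. The differences were 0.50 ± 0.12 (adjusted p = 0.00373) for HF against LF and -0.61 ± 0.12 (adjusted p = 0.00900) for HFLF against HF. In the fit without LF libraries 1 to 4 the first did not pass, and the second was -0.61 (adjusted p = 0.0131). HFLF against LF gave -0.12 ± 0.12 (adjusted p = 0.495).

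Of the remaining canalicular members, Abcb4 was at 292 ± 51.4 CPM in HFLF, 339 ± 46.7 in HF and 281 ± 53.2 in LF livers (mean ± SD, n = 6 each) and passed in no liver comparison. The P-glycoprotein genes Abcb1a and Abcb1b were low. Abcb1a was at 0.751 to 2.75 CPM in HFLF, 1.49 to 5.79 in HF and 0.996 to 2.53 in LF livers. Abcb1b was at 0.755 to 2.35 CPM in HFLF, 0.403 to 2.37 in HF and 0.781 to 5.55 in LF livers. They are close paralogs, so reads may be split between them. The Abcb1b log2 difference from LF was -1.32 ± 0.42 (adjusted p = 0.0322) in HFLF and -1.65 ± 0.43 (adjusted p = 0.00736) in HF. Its LF libraries 1 to 4 held 3.79 to 5.55 CPM and LF libraries 5 and 6 held 2.04 and 0.781 CPM. Without the first 4 the values were -0.02 (adjusted p = 0.993) in HFLF and -0.35 (adjusted p = 0.769) in HF. The HFLF call was also lost without any one of LF libraries 1 to 4 or HFLF libraries 1, 2, 5 or 6. Abcb1a gave 0.81 (adjusted p = 0.0570) in HF against LF and passed with upper-quartile factors, by DESeq2, and without LF library 4 or 5 or HF library 6.

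**Figure D2:**
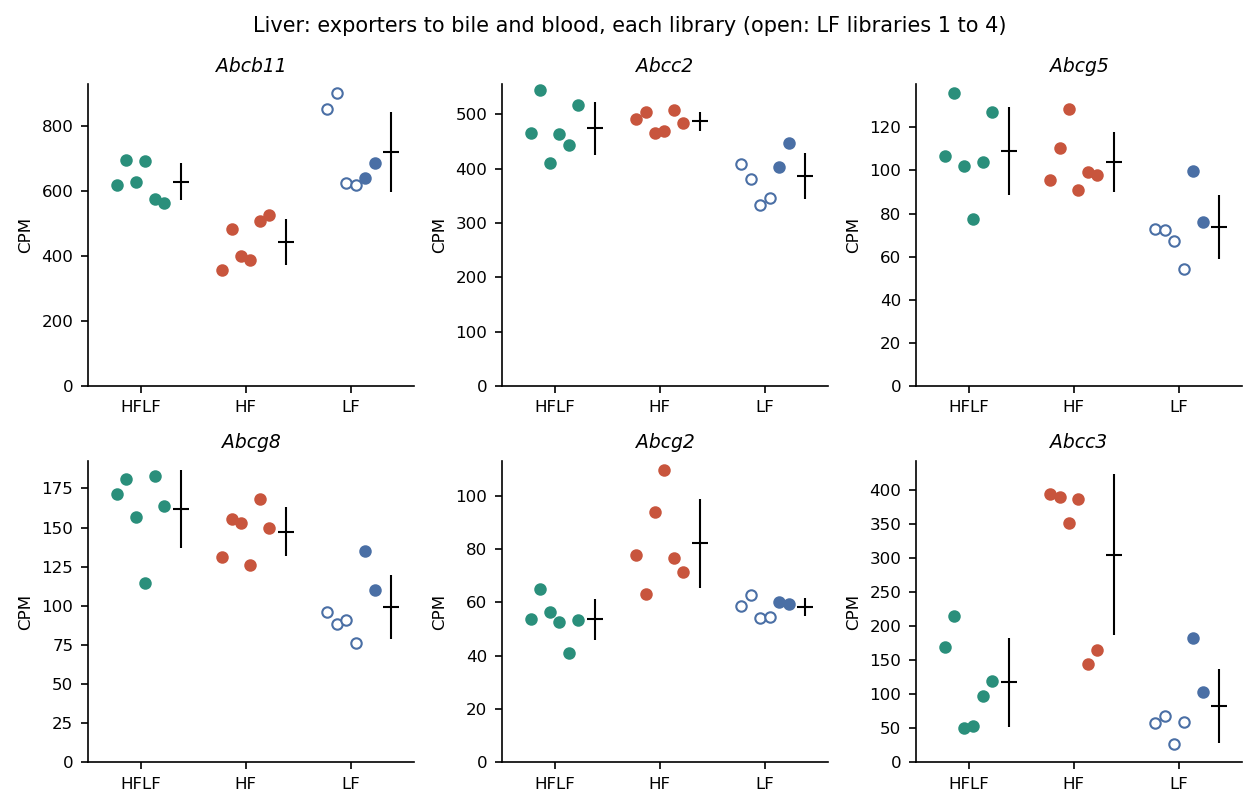
CPM in each liver library for 6 exporters, with HFLF, HF and LF from left to right, bars giving the mean ± SD of 6 libraries and open points marking LF libraries 1 to 4. Abcb11 is lowest in the 6 HF libraries, Abcg5 and Abcg8 are lowest in the open points, and 4 HF libraries of Abcc3 lie above 350 CPM.

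Of 6 Abcc efflux pumps measured in liver, 3 rose and none fell in HF, and 2 rose and none fell in HFLF, relative to LF. Abcc3, the basolateral exporter of bile salts and glucuronides, was at 50.0 to 215 CPM (median 108) in HFLF, 144 to 393 CPM (median 369) in HF and 27.1 to 183 CPM (median 63.8) in LF livers. HF libraries 1 to 4 held 352 to 393 CPM while HF libraries 5 and 6 held 144 and 164 CPM, within the LF range. The difference was 1.88 ± 0.45 (adjusted p = 0.00538) for HF against LF, 0.50 ± 0.44 (adjusted p = 0.438) for HFLF against LF and -1.37 ± 0.45 (adjusted p = 0.0809) for HFLF against HF. With LF libraries 1 to 4 left out, HF against LF gave 1.10 (adjusted p = 0.313). HFLF against HF then passed at -1.38 (adjusted p = 0.0425). Abcc6, a hepatic pump needed for ATP release, was at 343 to 395 CPM (median 371) in HFLF, 313 to 408.5 CPM (median 376) in HF and 228 to 372 CPM (median 277) in LF livers. Its differences from LF, 0.34 ± 0.11 (adjusted p = 0.0295) in HFLF and 0.34 ± 0.11 (adjusted p = 0.0192) in HF, came to 0.03 and 0.04 without LF libraries 1 to 4. The HFLF call was also lost without LF library 1, 2 or 4 or HFLF library 1, 2 or 5, and the HF call without LF library 2.

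Abcc10, which extrudes lipophilic anions, rose by 0.35 ± 0.06 (adjusted p = 0.00173) in HFLF and 0.18 ± 0.06 (adjusted p = 0.0402) in HF against LF. It was at 21.1 to 27.4 CPM (median 25.8) in HFLF, 21.2 to 23.8 CPM (median 22.4) in HF and 18.8 to 21.2 CPM (median 19.8) in LF livers. Its LF libraries 1 to 4 (18.8 to 21.2 CPM) did not stand apart from libraries 5 and 6 (20.3 and 19.3 CPM). With LF libraries 5 and 6 alone the differences were 0.35 (adjusted p = 0.118) in HFLF and 0.18 (adjusted p = 0.311) in HF. The HF call was lost without any one of LF libraries 1, 4 or 6 or HF libraries 1, 3, 4 or 6. Abcc1, Abcc4 and Abcc5, at group medians of 1.88 to 7.88 CPM, passed in no liver comparison with all libraries. Abcc4, a basolateral exporter, had log2 differences from LF of -0.33 in HFLF and -0.37 in HF, the second called without HF library 1. Abcc9, the regulatory subunit of vascular potassium channels, rose in HFLF against LF by 0.72 ± 0.17 (adjusted p = 0.00712), and gave 0.41 (adjusted p = 0.381) without LF libraries 1 to 4. It was at 23.8 to 37.7 CPM (median 32.4) in HFLF, 19.1 to 31.9 CPM (median 24.1) in HF and 13.3 to 28.9 CPM (median 17.7) in LF livers. None of the 8 endothelial markers passed, and 1 of 8 pericyte and smooth muscle markers fell, in HFLF against LF. No marker of either list passed there without LF libraries 1 to 4.

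Among peroxisomal and lysosomal members, Abcd2, Abcd3, Abcd4 and Abcb9 rose in both HFLF and HF livers against LF. Abcd2 was at 7.06 to 28.4 CPM (median 16.3) in HFLF, 4.00 to 40.1 CPM (median 18.2) in HF and 1.99 to 8.81 CPM (median 4.75) in LF livers. Its log2 difference from LF was 1.74 ± 0.47 (adjusted p = 0.0159) in HFLF and 2.05 ± 0.47 (adjusted p = 0.00394) in HF. HF library 5, at 4.00 CPM, lay inside the LF range. The values without LF libraries 1 to 4 were 1.02 (adjusted p = 0.482) in HFLF and 1.33 (adjusted p = 0.268) in HF.

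Abcd3, the abundant importer of branched fatty acyl-CoA and bile acid intermediates, was at 549 to 717 CPM (median 626) in HFLF, 531 to 646 CPM (median 599) in HF and 367 to 552 CPM (median 492) in LF livers. It differed from LF by 0.41 ± 0.10 (adjusted p = 0.00961) in HFLF and 0.32 ± 0.10 (adjusted p = 0.0226) in HF. The HF call was lost without LF library 3 or 4 or HF library 4. With LF libraries 1 to 4 out together, the values were 0.20 (adjusted p = 0.426) in HFLF and 0.11 (adjusted p = 0.633) in HF. Abcd4, which moves vitamin B12 out of lysosomes, rose by 0.48 ± 0.15 (adjusted p = 0.0315) in HFLF and 0.68 ± 0.15 (adjusted p = 0.00298) in HF. It was at 16.8 to 25.4 CPM (median 21.8) in HFLF, 20.4 to 37.6 CPM (median 22.4) in HF and 11.6 to 18.5 CPM (median 15.9) in LF livers. HF lay wholly above LF, and the differences without LF libraries 1 to 4 were 0.42 (adjusted p = 0.411) in HFLF and 0.62 (adjusted p = 0.154) in HF. Abcb9, a lysosomal peptide transporter, was at 2.40 to 5.0 CPM (median 3.77) in HFLF, 3.59 to 7.13 CPM (median 5.25) in HF and 1.38 to 3.16 CPM (median 2.33) in LF livers. Its differences from LF were 0.68 ± 0.23 (adjusted p = 0.0384) in HFLF and 1.25 ± 0.22 (adjusted p = 0.000706) in HF. They were 0.64 (adjusted p = 0.346) and 1.21 (adjusted p = 0.0514) without LF libraries 1 to 4. The HFLF calls of Abcd4 and Abcb9 were lost without any one of 5 and 6 single libraries. For Abcd4 these were LF libraries 1 and 2 and HFLF libraries 2, 5 and 6, and for Abcb9 LF libraries 1 and 2 and HFLF libraries 1, 2, 3 and 6.

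**Figure D3:**
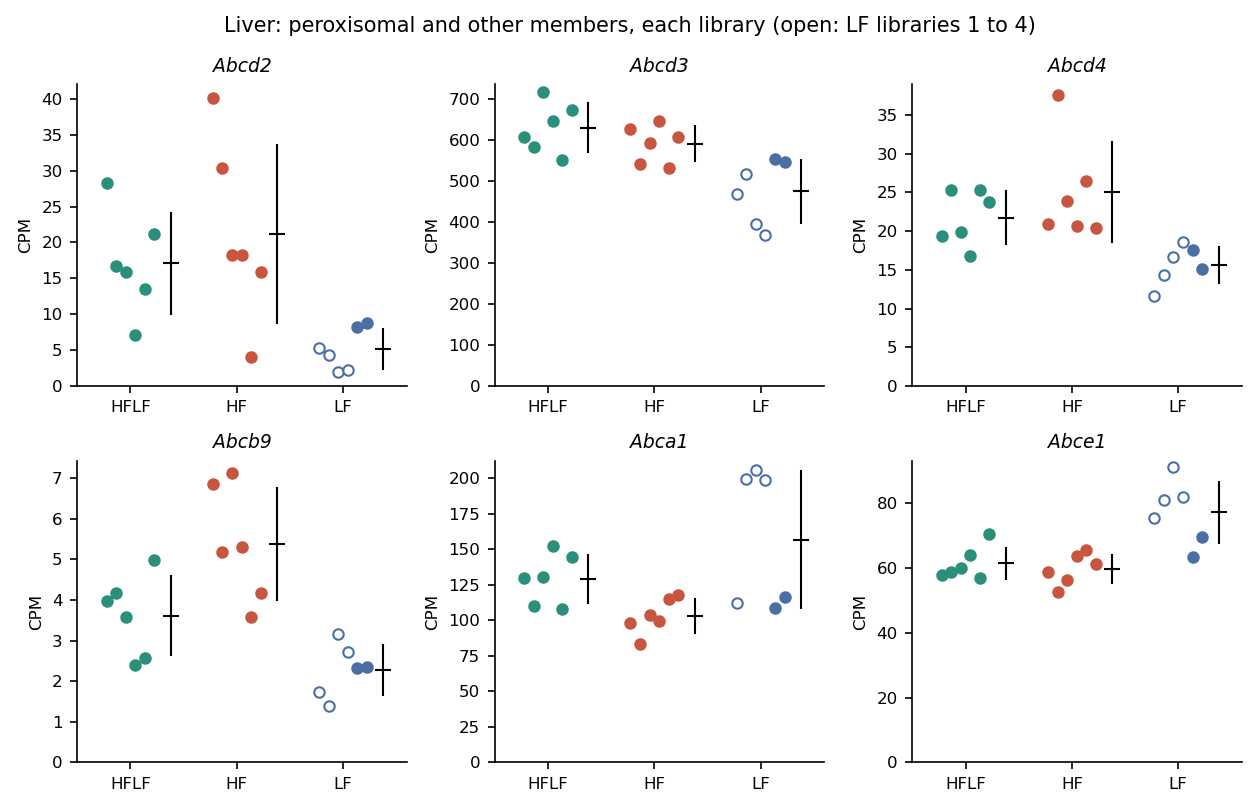
CPM in each liver library for Abcd2, Abcd3, Abcd4, Abcb9, Abca1 and Abce1, drawn as HFLF, HF and LF from left to right with mean ± SD of 6 libraries and LF libraries 1 to 4 as open points. All 6 HF libraries of Abcd4 lie above its LF libraries, and 3 of the open LF points of Abca1 lie near 200 CPM.

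Peroxisomal oxidation and assembly genes outside the family were measured beside the peroxisomal members. Of 14 such genes, 10 rose and none fell in HF livers relative to LF (34.8% of all genes called). In HFLF livers 4 rose and none fell (22.6%). The 3 with the smallest p in HF were Decr2, an enoyl-CoA reductase, at 0.82 (adjusted p = 2.9e-05), the membrane assembly factor Pex16 at 0.63 (adjusted p = 9.83e-05) and the bifunctional enzyme Hsd17b4 at 0.60 (adjusted p = 0.000282). With LF libraries 5 and 6 alone as the LF group, 2 of the 14 rose in HF, Decr2 (0.61, adjusted p = 0.0186) and Pex16 (0.46, adjusted p = 0.0411), and none passed in HFLF.

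Of the 3 sterol exporters and related members measured in liver, only Abca1 was called in HF against LF, where it fell. Abca1 was at 108 to 152 CPM (median 130.4) in HFLF, 83.5 to 118 CPM (median 101.5) in HF and 108 to 206 CPM (median 158) in LF livers. It differed from LF by -0.28 ± 0.16 (adjusted p = 0.232) in HFLF and -0.61 ± 0.17 (adjusted p = 0.00948) in HF. LF libraries 2, 3 and 4 held 199 to 206 CPM and LF libraries 1, 5 and 6 held 108 to 116 CPM. Without LF libraries 1 to 4 its HF difference was -0.12 (adjusted p = 0.652), and HFLF against HF passed at 0.33 (adjusted p = 0.0439). Abcg1, which exports cholesterol to mature lipoprotein, was at 7.44 ± 1.47 CPM in HFLF, 8.66 ± 1.63 in HF and 7.68 ± 0.920 in LF livers (mean ± SD, n = 6 each). Neither it nor Abca7, a phospholipid transporter of phagocytes, passed in a liver comparison. Among 13 partners of cholesterol efflux, 3 rose and 1 fell in HFLF, and 2 rose and 1 fell in HF, relative to LF. The shares of all genes called were 22.6% in HFLF and 34.8% in HF. Npc1, which releases cholesterol from lysosomes, rose by 0.74 (adjusted p = 0.0007) in HFLF and 0.54 (adjusted p = 0.00180) in HF, and Scarb1, the HDL receptor, fell by 0.26 (adjusted p = 0.0345) and 0.33 (adjusted p = 0.00743). None of the 13 passed against LF without LF libraries 1 to 4.

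Of the other 7 Abca members measured in liver, 2 fell in HF and none passed in HFLF, relative to LF. Abca8b, a lipid transporter of the Abca5 to Abca9 cluster, was at 61.6 to 72.0 CPM (median 67.2) in HFLF, 43.6 to 54.6 CPM (median 50.9) in HF and 53.5 to 87.0 CPM (median 70.0) in LF livers. It differed by -0.48 ± 0.10 (adjusted p = 0.00198) for HF against LF, and by -0.48 (adjusted p = 0.0141) without LF libraries 1 to 4. For HFLF against HF, where the ranges did not overlap, it differed by 0.42 ± 0.10 (adjusted p = 0.0248). Omitting HF library 2, 3 or 4 or HFLF library 3 or 5 ended the second call. Its close paralog Abca8a also had its lowest median in HF, but its highest in HFLF and not in LF. Abca8a was at 94.4 to 146 CPM (median 112) in HFLF, 43.7 to 93.3 CPM (median 67.3) in HF and 49.5 to 164 CPM (median 106) in LF livers. Reads may be split between the paralogs. With all libraries Abca8a did not pass (-0.54, adjusted p = 0.0919 for HF against LF and 0.69, adjusted p = 0.0992 for HFLF against HF). It passed in both without LF libraries 1 to 4 (-1.02, adjusted p = 0.0386 and 0.70, adjusted p = 0.0255). Abca8a was also called in HF against LF without LF library 3 or 4. Abca2, an endolysosomal lipid transporter, fell in HF by 0.47 ± 0.12 (adjusted p = 0.00764) and gave -0.37 (adjusted p = 0.274) without LF libraries 1 to 4. Abca3, Abca5, Abca6 and Abca9 passed in no liver comparison.

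Among mitochondrial members, Abcb8, an inner-membrane transporter linked to iron handling, rose in HF livers by 0.33 ± 0.08 (adjusted p = 0.00633) and Abcb6, a porphyrin transporter, by 0.39 ± 0.12 (adjusted p = 0.0143). Abcb6 shares 2932 exon bases, 55.2% of its exon length, with Gm29253 on the same strand, so its counts are uncertain. The HF differences were 0.37 (adjusted p = 0.0849) for Abcb8 and 0.13 (adjusted p = 0.660) for Abcb6 without LF libraries 1 to 4. Abcb10, a heme-linked transporter, gave -0.15 (adjusted p = 0.244) and did not pass. Heme and iron-sulfur genes outside the family gave 4 higher and 1 lower of 14 in HF against LF, led by the heme synthesis enzyme Cpox at 0.70 (adjusted p = 0.00107), and none passed without LF libraries 1 to 4. With all libraries 34.8% of all genes were called in HF against LF. HFLF against HF gave 5 lower and none higher of these 14 (5.23% of all genes called), led by the scaffold gene Iscu at -0.45 (adjusted p = 0.00750).

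Of the 4 members that act on ribosomes or translation, 3 fell in HFLF and 2 in HF livers, relative to LF. Abce1, the ribosome recycling factor, was at 57.0 to 70.7 CPM (median 59.5) in HFLF, 52.7 to 65.5 CPM (median 60.1) in HF and 63.5 to 91.1 CPM (median 78.3) in LF livers. Its log2 differences from LF were -0.33 ± 0.08 (adjusted p = 0.00984) in HFLF and -0.37 ± 0.08 (adjusted p = 0.00291) in HF. They were -0.11 (adjusted p = 0.620) and -0.16 (adjusted p = 0.386) without LF libraries 1 to 4. Abcf3 lay lower in every HFLF and HF library than in every LF library, at 43.1 to 54.0 CPM (median 49.2) in HFLF, 46.1 to 53.0 CPM (median 49.1) in HF and 55.3 to 75.0 CPM (median 58.4) in LF livers. It differed from LF by -0.32 ± 0.07 (adjusted p = 0.00696) in HFLF and -0.32 ± 0.07 (adjusted p = 0.00398) in HF. Abcf1 fell in HFLF (-0.20, adjusted p = 0.0155, and -0.10, adjusted p = 0.562 without LF libraries 1 to 4) and did not pass in HF (-0.12, adjusted p = 0.103), and Abcf2 passed in neither. Of 10 ribosome recycling and initiation genes outside the family, 7 fell and none rose in HFLF relative to LF (22.6% of all genes called). In HF 7 fell and none rose (34.8%). The termination factor Etf1 fell by 0.34 (adjusted p = 0.00571) in HFLF and 0.52 (adjusted p = 0.000212) in HF. Etf1 in HF (-0.33, adjusted p = 0.0426) was the only call among these 10 against LF without LF libraries 1 to 4. Abcf3 gave -0.22 (adjusted p = 0.253) in HFLF and -0.22 (adjusted p = 0.170) in HF without LF libraries 1 to 4. The part of the acute-phase difference in these falls was not tested further.

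Abcg3, a rodent relative of Abcg2, was low, and its HFLF and HF libraries all lay above its LF libraries. It was at 2.16 to 2.57 CPM (median 2.30) in HFLF, 2.07 to 3.40 CPM (median 2.75) in HF and 1.47 to 1.98 CPM (median 1.58) in LF livers. It differed from LF by 0.52 ± 0.14 (adjusted p = 0.0144) in HFLF and 0.74 ± 0.14 (adjusted p = 0.000922) in HF. Without LF libraries 1 to 4 these were 0.57 (adjusted p = 0.232) and 0.80 (adjusted p = 0.0589). Among ABC proteins named outside the rule, the antigen peptide transporter subunit Tap1 rose by 0.47 (adjusted p = 0.0423) in HFLF and 0.69 (adjusted p = 0.00356) in HF, and Tap2 did not pass in liver. The Tap1 values without LF libraries 1 to 4 were 0.63 (adjusted p = 0.0789) in HFLF and 0.85 (adjusted p = 0.0136) in HF.

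Of 10 bile salt and organic ion carriers outside the family, 4 rose and 2 fell in HF against LF. Tmem30a, partner of the phospholipid flippase Atp8b1, changed by -0.55 (adjusted p = 0.000296) and the exporter Slc47a1 by 1.27 (adjusted p = 0.000304). In HFLF against LF 2 rose, the bile salt uptake carrier Slc10a1 (0.61, adjusted p = 0.00339) and Slc47a1 (0.77, adjusted p = 0.0112). Of 16 nuclear receptors and factors known to act on ABC genes, 2 rose and 2 fell in HFLF, and 4 rose and 2 fell in HF, relative to LF. Over all liver genes, 22.6% were called in HFLF and 34.8% in HF against LF. Nr1i3, the xenobiotic receptor CAR, rose by 1.09 (adjusted p = 0.0293) in HFLF and 2.05 (adjusted p = 0.000609) in HF, and Hnf4a fell by 0.54 (adjusted p = 0.00201) and 0.66 (adjusted p = 0.000263). With only LF libraries 5 and 6 as the LF group, none of the carriers passed against LF, and of the 16 receptors and factors Hnf4a passed, in HF (-0.60, adjusted p = 0.0486). Nr1h4, the bile acid receptor, did not pass in liver (0.22, adjusted p = 0.183 in HFLF and 0.26, adjusted p = 0.0832 in HF).

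Between HFLF and HF livers, Abcg2 was lower and Abcb11 and Abca8b were higher in HFLF. The count of 4 members called was 7 without LF libraries 1 to 4 (9.64% of all genes), which share the fit but not the contrast, with Abca1, Abca8a and Abcc3 added. It was 2 without HF library 2, 1 without HF library 3 and 1 without HF library 4, and 2 without HFLF library 3 and 2 without HFLF library 5. Of the 3 named, Abcg2 alone was called in all 12 single-library omissions.

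In eWAT, 9 members rose and 9 fell among 40 in HF against LF, where 40.8% of all genes were called (20.6% of all genes higher and 20.2% lower). The median log2 fold change was 0.01 over the members and -0.02 over all genes. The shares of all genes in this paragraph also stand beside the role, partner and marker counts in eWAT below. HFLF against HF gave 4 higher and 6 lower members, beside 25.4% of all genes called (10.7% of all genes higher and 14.7% lower). By edgeR 0 passed in HFLF against LF, beside 0.563% of all genes (0.342% of all genes higher and 0.222% lower), where 11 members had an unadjusted p under 0.05 and DESeq2 called 1, Abcg1. HF and LF libraries did not overlap for 7 members (15.8% of all genes), and 1 member each did so in HFLF against LF (Abca1; 2.56%) and in HFLF against HF (Abca7; 9.44%). Without the 6 libraries, HF against LF gave 7 higher and 4 lower (31.2% of all genes), HFLF against LF 0 (0.0359%) and HFLF against HF 1 higher and 1 lower (8.33%). Abcc3 and Abcf3 were among those called in HF against LF, though not called with all libraries. Without HF library 4 alone, the count in HF against LF was 11, and without HF library 5 alone, that in HFLF against HF was 15.

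Of 4 sterol exporters and related members, 2 rose in HF against LF and 2 fell in HFLF against HF, Abcg1 and Abca7 in both. Abcg1 was at 67.5 to 127 CPM (median 98.2) in HFLF, 100.3 to 269.5 CPM (median 169) in HF and 42.6 to 79.3 CPM (median 50.6) in LF eWAT. HF libraries 1 to 4 held 140 to 269.5 CPM and HF libraries 5 and 6 held 100.3 and 103 CPM, still above every LF library. The difference was 1.60 ± 0.25 (adjusted p = 0.000148) for HF against LF, 0.81 ± 0.24 (adjusted p = 0.118) for HFLF against LF and -0.79 ± 0.24 (adjusted p = 0.0242) for HFLF against HF. The last was lost without HF library 3 or 4 or HFLF library 4. Abca7 was at 35.9 to 42.1 CPM (median 38.5) in HFLF, 45.3 to 68.2 CPM (median 52.5) in HF and 22.1 to 40.8 CPM (median 32.4) in LF eWAT. HF lay above both other diets without overlap. Abca7 differed by 0.74 ± 0.12 (adjusted p = 0.000238) for HF against LF and -0.49 ± 0.12 (adjusted p = 0.00847) for HFLF against HF. Without the 6 libraries the HF against LF values were 1.52 (adjusted p = 0.00745) for Abcg1 and 0.68 (adjusted p = 0.00510) for Abca7. Abca1 did not pass, at 177 to 240 CPM (median 198) in HFLF, 145 to 242 CPM (median 174) in HF and 159 to 175 CPM (median 172) in LF eWAT. Against LF it gave 0.26 (adjusted p = 0.210) for HFLF, whose libraries all lay above the LF range, and 0.14 (adjusted p = 0.312) for HF. Abcg4, a sterol exporter of neurons, was at 1.86 to 7.71 CPM over the 18 libraries and did not pass.

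Abcd2, the leading member of eWAT, was at 472 to 634 CPM (median 592) in HFLF, 186 to 545 CPM (median 358) in HF and 375 to 784 CPM (median 579.7) in LF eWAT. HF libraries 1 to 4 were low at 186 to 413 CPM, though library 2, at 413 CPM, lay inside the LF range. The other HF libraries, 5 and 6, held 531 and 545 CPM, also inside the LF range. The difference was -0.62 ± 0.22 (adjusted p = 0.0351) for HF against LF and 0.61 ± 0.22 (adjusted p = 0.0546) for HFLF against HF. The HF call was lost without LF library 1, 2 or 6 or HF library 1, 3 or 4 (log2 fold changes of -0.75 to -0.48 over the 12 omissions), and it gave -0.80 (adjusted p = 0.0503) without the 6 libraries. Abcd3 did not pass and was at 82.7 to 103 CPM (median 99.4) in HFLF, 79.0 to 119.5 CPM (median 91.8) in HF and 99.6 to 113 CPM (median 105) in LF eWAT. Neither Abcd4 nor Abcb9 passed. The 14 peroxisomal genes outside the family gave 1 higher and 5 lower in HF against LF, with the thioesterase Acot4 at -2.05 (adjusted p = 8.41e-05), Pex3 at -0.80 (adjusted p = 0.000259) and Scp2 at -0.74 (adjusted p = 0.000608). Of these, 4 fell and none rose without the 6 libraries.

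**Figure D4:**
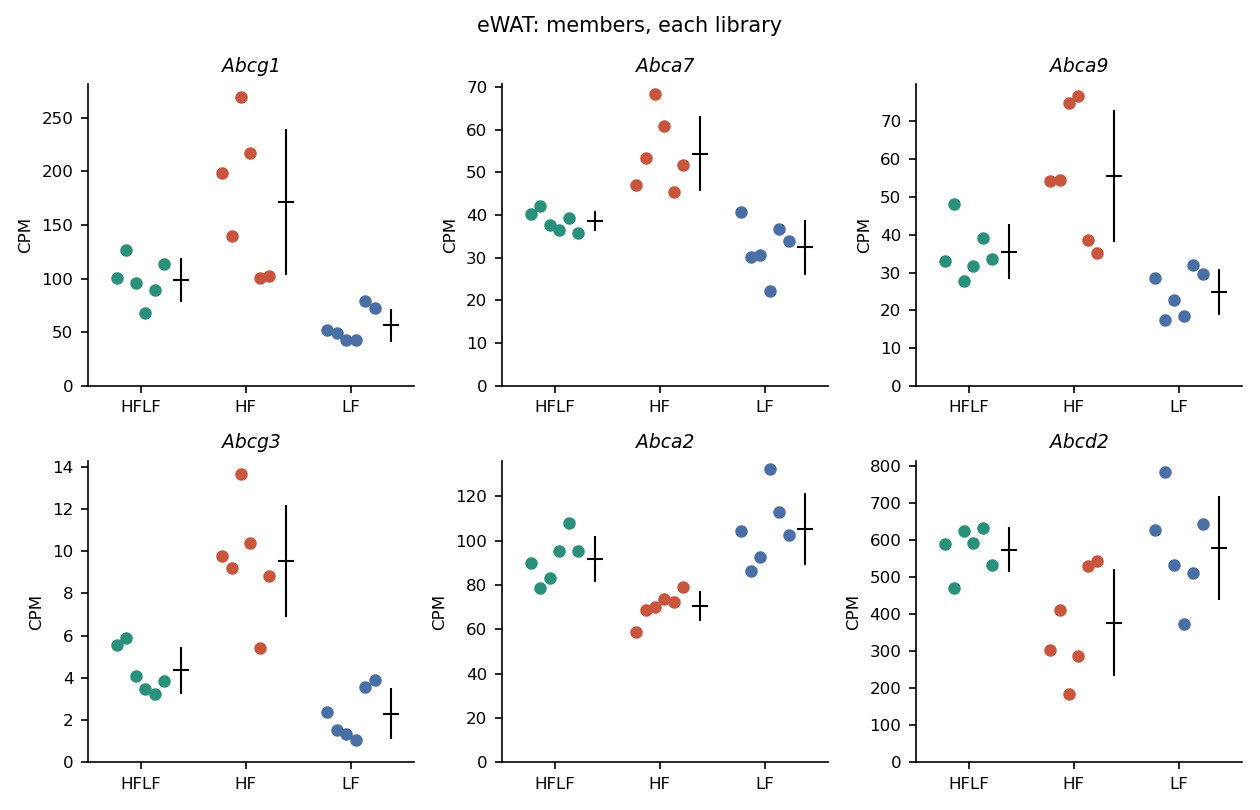
CPM in each eWAT library for 6 members, with HFLF, HF and LF from left to right and bars for the mean ± SD of 6 libraries. The HF libraries of Abcg1, Abca7, Abca9 and Abcg3 all lie above the LF libraries, those of Abca2 all lie below them, and 4 of 6 HF libraries of Abcd2 lie at or below 413 CPM.

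Abca9, known from human macrophages as a cholesterol-responsive gene, was at 27.6 to 48.2 CPM (median 33.3) in HFLF, 35.1 to 76.8 CPM (median 54.3) in HF and 17.4 to 31.9 CPM (median 25.6) in LF eWAT. It differed by 1.16 ± 0.21 (adjusted p = 0.000425) for HF against LF and -0.65 ± 0.21 (adjusted p = 0.0295) for HFLF against HF. The second was lost without HF library 3 or 4 or HFLF library 1, 3, 4 or 6. Abcg3 rose by 2.04 ± 0.31 (adjusted p = 0.000135) in HF against LF. It was at 3.26 to 5.87 CPM (median 3.98) in HFLF, 5.43 to 13.6 CPM (median 9.49) in HF and 1.06 to 3.89 CPM (median 1.97) in LF eWAT, and HFLF against HF gave -1.14 ± 0.30 (adjusted p = 0.0123). Without the 6 libraries, HF against LF remained called for both (1.15, adjusted p = 0.0164 and 1.83, adjusted p = 0.00466). HFLF against HF was not (-0.60, adjusted p = 0.152 for Abca9, -1.03, adjusted p = 0.0597 for Abcg3 and -0.69, adjusted p = 0.129 for Abcg1).

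Cell markers also differed between the diets in eWAT. Of 11 macrophage markers measured, 9 rose and none fell in HF against LF eWAT, and their summed level was 897 to 3160 CPM (median 1144) in HFLF, 1328 to 11400 CPM (median 4606) in HF and 497 to 912 CPM (median 639) in LF eWAT. The macrophage marker Cd68 was at 239 to 835 CPM in HF libraries 1 to 4, while the other HF libraries, 5 and 6, held 75.3 and 155 CPM. HF libraries 5 and 6 were also the nearest to the LF levels for Abcg1, Abca9, Abcg3 and Abcd2. For Abca7 they were not, with HF library 5 at 45.3 CPM, HF library 1 at 47.0 CPM and HF library 6 at 51.7 CPM. Of 10 adipocyte markers 1 rose and 6 fell, with sums of 29030 to 41190 CPM (median 36930) in HFLF, 13570 to 35380 CPM (median 24130) in HF and 30390 to 56230 CPM (median 46150) in LF eWAT. These sums weigh the most abundant markers most, and the markers differed unevenly. Retn was at 850.7 to 2067 CPM in LF and 94.8 to 1052 CPM in HF eWAT, and Cidec at 3615 to 6311 CPM and 2117 to 5878 CPM. The sums are thus no measure of the share of adipocytes. Of 10 fibroblast markers 5 rose and none fell, with sums of 2665 to 3619 CPM (median 3058), 4317 to 14790 CPM (median 6794) and 2568 to 3926 CPM (median 2739) in HFLF, HF and LF eWAT. The part of cell composition in the differences of Abcg1, Abca7, Abca9, Abcg3 and Abcd2 was not tested, and in bulk tissue fewer cells of a type and less RNA per cell cannot be told apart. None of the 8 endothelial markers passed. Of 13 cholesterol efflux partners 5 rose and 3 fell in HF, among them the lipid transfer protein Pltp at 1.79 (adjusted p = 0.000153), the cholesteryl ester hydrolase Nceh1 at 3.20 (adjusted p = 0.00026) and Apoe at -0.73 (adjusted p = 8.98e-05). With those 6 libraries out, 6 rose and 2 fell, these 3 among them in the same directions.

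Among the other Abca members, Abca2 fell in HF by 0.58 ± 0.10 (adjusted p = 0.000322) and was higher in HFLF than in HF by 0.38 ± 0.10 (adjusted p = 0.0117). It was at 78.7 to 108 CPM (median 92.4) in HFLF, 59.0 to 79.2 CPM (median 71.2) in HF and 86.5 to 132 CPM (median 103) in LF eWAT. All 6 HF libraries lay below all LF libraries. Abca5 also had its lowest median in HF, with medians of 12.6 CPM in HFLF, 8.22 CPM in HF and 11.2 CPM in LF eWAT. It differed by -0.47 ± 0.15 (adjusted p = 0.0215) for HF against LF and 0.55 ± 0.15 (adjusted p = 0.0152) for HFLF against HF, the first lost without LF library 3 or 4 or HF library 3. With the 6 libraries left out, Abca2 gave -0.42 (adjusted p = 0.0120) for HF against LF and 0.30 (adjusted p = 0.0689) for HFLF against HF, and Abca5 gave -0.16 (adjusted p = 0.481) and 0.40 (adjusted p = 0.0944). Abca3, known for packing surfactant lipid in lung, rose in HF by 0.31 ± 0.10 (adjusted p = 0.0240), a call lost without HF library 4 and kept without the 6 libraries (0.40, adjusted p = 0.0229). It shares 914 exon bases with the opposite-strand gene D330041H03Rik, from which its reads may not be told apart. Abca8a was highest in HFLF, at 75.5 to 125 CPM (median 99.9) in HFLF, 46.2 to 80.2 CPM (median 64.2) in HF and 52.3 to 100.5 CPM (median 76.2) in LF eWAT. It differed by 0.65 ± 0.16 (adjusted p = 0.00742) for HFLF against HF and 0.43 ± 0.16 (adjusted p = 0.173) for HFLF against LF. Without the 6 libraries its HFLF against HF value was 0.76 (adjusted p = 0.0204). Abca4, a retinal lipid flippase, Abca6 and Abca8b did not pass. Abca6 was at 10.6 ± 2.03 CPM in HFLF, 8.54 ± 1.35 in HF and 7.98 ± 1.60 in LF eWAT (mean ± SD, n = 6 each).

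In HF against LF eWAT 2 mitochondrial members fell. Abcb8 fell by 0.47 ± 0.10 (adjusted p = 0.00129), with 58.5 to 72.3 CPM (median 67.2) in HFLF, 48.4 to 67.4 CPM (median 53.4) in HF and 61.8 to 88.3 CPM (median 80.9) in LF eWAT. Abcb10, which shares 444 exon bases with the opposite-strand gene Gm45890, fell by 0.23 ± 0.08 (adjusted p = 0.0383). Abcb6 did not pass. With those 6 libraries out, the values were -0.54 (adjusted p = 0.00431) for Abcb8 and -0.29 (adjusted p = 0.0480) for Abcb10. The call of Abcb10 was lost in 7 of 12 single-library omissions, those of LF libraries 1, 2, 3 and 6 and HF libraries 1, 2 and 4. Heme and iron-sulfur genes gave 1 higher and 6 lower of 14, led by the heme synthesis enzyme Alad at -1.41 (adjusted p = 3.32e-05), and 1 higher and 6 lower also without the 6 libraries. Abce1 was at 63.0 to 76.6 CPM (median 65.3) in HFLF, 75.9 to 83.4 CPM (median 79.2) in HF and 59.2 to 72.2 CPM (median 65.6) in LF eWAT. It differed by 0.27 ± 0.06 (adjusted p = 0.00221) for HF against LF and -0.23 ± 0.06 (adjusted p = 0.0112) for HFLF against HF, and by 0.17 (adjusted p = 0.116) and -0.21 (adjusted p = 0.0772) without the 6 libraries. Abcf1, Abcf2 and Abcf3 did not pass, Abcf3 doing so in HF against LF without the 6 libraries (-0.19, adjusted p = 0.0462), and ribosome partners gave 3 higher and 1 lower of 10 (0 and 1 without the 6 libraries).

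Of the Abcc pumps in eWAT, Abcc5, an exporter of cyclic nucleotides, rose in HF by 0.25 ± 0.08 (adjusted p = 0.0181). Abcc10 fell in HF by 0.27 ± 0.08 (adjusted p = 0.0142) and was higher in HFLF than in HF by 0.27 ± 0.08 (adjusted p = 0.0206), the second call lost without HF library 1 or 3. In the fit without the 6 libraries Abcc5 gave 0.23 (adjusted p = 0.161), and Abcc10 -0.17 (adjusted p = 0.218) for HF against LF and 0.19 (adjusted p = 0.200) for HFLF against HF. Abcc3 was at 33.0 to 40.5 CPM (median 36.1) in HFLF, 39.4 to 49.7 CPM (median 42.2) in HF and 18.3 to 49.8 CPM (median 28.7) in LF eWAT. It did not pass in HF against LF with all libraries (0.47, adjusted p = 0.0751), but did without LF library 4, without LF library 5, and without the 6 libraries (0.78, adjusted p = 0.00874). Abcc1, Abcc4 and Abcc9 did not pass. Abcc9 was at 50.6 to 66.1 CPM (median 57.4) in HFLF, 33.8 to 63.2 CPM (median 48.1) in HF and 33.0 to 53.7 CPM (median 49.4) in LF eWAT. The apical exporters Abcb1a and Abcg2 did not pass. Abcb1a was at 22.3 to 29.8 CPM (median 24.6) in HFLF, 12.2 to 28.9 CPM (median 20.1) in HF and 15.2 to 27.3 CPM (median 23.8) in LF eWAT. Abcg2 was at 29.3 to 37.0 CPM (median 33.2) in HFLF, 24.5 to 36.6 CPM (median 32.6) in HF and 26.9 to 82.4 CPM (median 27.4) in LF eWAT. There LF library 3, the one with Crisp1, held 82.4 CPM and the others 26.9 to 40.4 CPM. Abcb1b and Abcb4 did not pass either. In HF libraries 1, 3 and 4 Abcb4 was at 9.74, 16.4 and 12.2 CPM, while the other HF libraries held 2.39 to 4.36 CPM. HF libraries 1, 3 and 4 also had the highest macrophage sums, and Abcb4 passed in HF against LF without HF library 2, 5 or 6 (0.96, adjusted p = 0.0517 with all libraries).

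The hepatic exporters Abcb11, Abcc2, Abcc6 and Abcg5 were close to 0 in eWAT, and Abcc2, Abcc6 and Abcg5 were lower in HF than in LF eWAT. Abcc6 was at 0.0476 to 0.968 CPM (median 0.390) in HFLF, 0.0487 to 1.04 CPM (median 0.214) in HF and 0.306 to 6.84 CPM (median 1.33) in LF eWAT. Abcc2 was at 0.0804 to 1.34 CPM (median 0.526) in HFLF, 0.184 to 1.09 CPM (median 0.441) in HF and 0.235 to 5.03 CPM (median 1.37) in LF eWAT. LF libraries 3, 4 and 5 were the 3 highest for Abcb11, Abcc2 and Abcc6, as they were for Alb, and the part of liver RNA in these values was not tested beyond the fit without them. HF against LF gave -2.54 ± 0.86 (adjusted p = 0.0254) for Abcc6, -1.92 ± 0.67 (adjusted p = 0.0300) for Abcc2, -1.33 ± 0.51 (adjusted p = 0.0479) for Abcg5 and -2.04 ± 1.03 (adjusted p = 0.123) for Abcb11. Without the 6 libraries these were -0.34 (adjusted p = 0.766), -0.15 (adjusted p = 0.890), -0.46 (adjusted p = 0.602) and 0.65 (adjusted p = 0.652). The Abcc6 call was also lost without LF library 5 or HF library 4, and the Abcc2 call without LF library 3 or 5 or HF library 1, 2, 4, 5 or 6. The Abcg5 call was lost without any one of LF libraries 1 to 5 or HF libraries 1, 2, 4 or 6. Hepatocyte markers gave 4 lower and none higher of 10 in HF against LF eWAT, with sums of 895.5 to 3298 CPM (median 2422) in HFLF, 31.6 to 1324 CPM (median 472) in HF and 3036 to 7754 CPM (median 3838) in LF eWAT. Cyp2e1, which fat also expresses, was the highest of these markers in the eWAT libraries other than HF library 3, where Alb was. Of the 10 markers, 1 fell and none rose without the 6 libraries.

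The response to HF was then compared between tissues in a joint fit of the 13206 genes that both tables hold, as the liver minus the eWAT log2 fold change. It differed for 22 of 38 members, 14 higher and 8 lower in liver, beside 45.6% of all genes (24.6% of all genes higher and 21% lower). In HFLF against LF 6 were higher and 2 lower in liver, beside 8.56% of all genes (4.96% of all genes higher and 3.6% lower). In HFLF against HF 2 were higher and 3 lower, beside 18.0% of all genes (9.18% of all genes higher and 8.78% lower). Without liver LF libraries 1 to 4 the first count was 13 (22.9% of all genes), the second 0 (0.00757%) and the third 5 (20.6%). Without the 6 eWAT libraries the first was 15 (39.4%), the second 0 (2.35%) and the third 2 (13%). Abcd2 rose in liver and fell in eWAT on HF, a difference of 2.72 ± 0.52 (adjusted p = 0.000121), with 1.97 (adjusted p = 0.0232) without the 4 liver libraries and 2.85 (adjusted p = 0.000782) without the 6 eWAT libraries. Abcb8 also rose in liver and fell in eWAT (0.85 ± 0.13, adjusted p = 6.49e-06), as did Abcc10 (0.50 ± 0.10, adjusted p = 0.000199), and Abce1 fell in liver and rose in eWAT (-0.59 ± 0.10, adjusted p = 2.05e-05). These 3 differences were called also without the 4 liver libraries and without the 6 eWAT libraries. For Abcg1 the difference was -1.37 ± 0.30 (adjusted p = 0.000418) and for Abca7 -0.82 ± 0.18 (adjusted p = 0.00055), lower in liver. For HFLF against LF the smallest p belonged to Abcd3 (0.60 ± 0.14, adjusted p = 0.0121), Abcc6 (2.67 ± 0.69, adjusted p = 0.0167), Abcc10 (0.39 ± 0.10, adjusted p = 0.0168) and Abcb8 (0.46 ± 0.13, adjusted p = 0.0246). For HFLF against HF they were Abca5 (-0.78 ± 0.22, adjusted p = 0.0155), Abca7 (0.62 ± 0.18, adjusted p = 0.0182), Abcb1a (-1.25 ± 0.38, adjusted p = 0.0206) and Abcb8 (-0.40 ± 0.13, adjusted p = 0.0280). The eWAT levels behind the Abcc6 difference were close to 0 (medians of 0.390 CPM in HFLF and 1.33 CPM in LF). They were highest in LF libraries 3, 4 and 5, those with the most Alb.

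**Figure D5:**
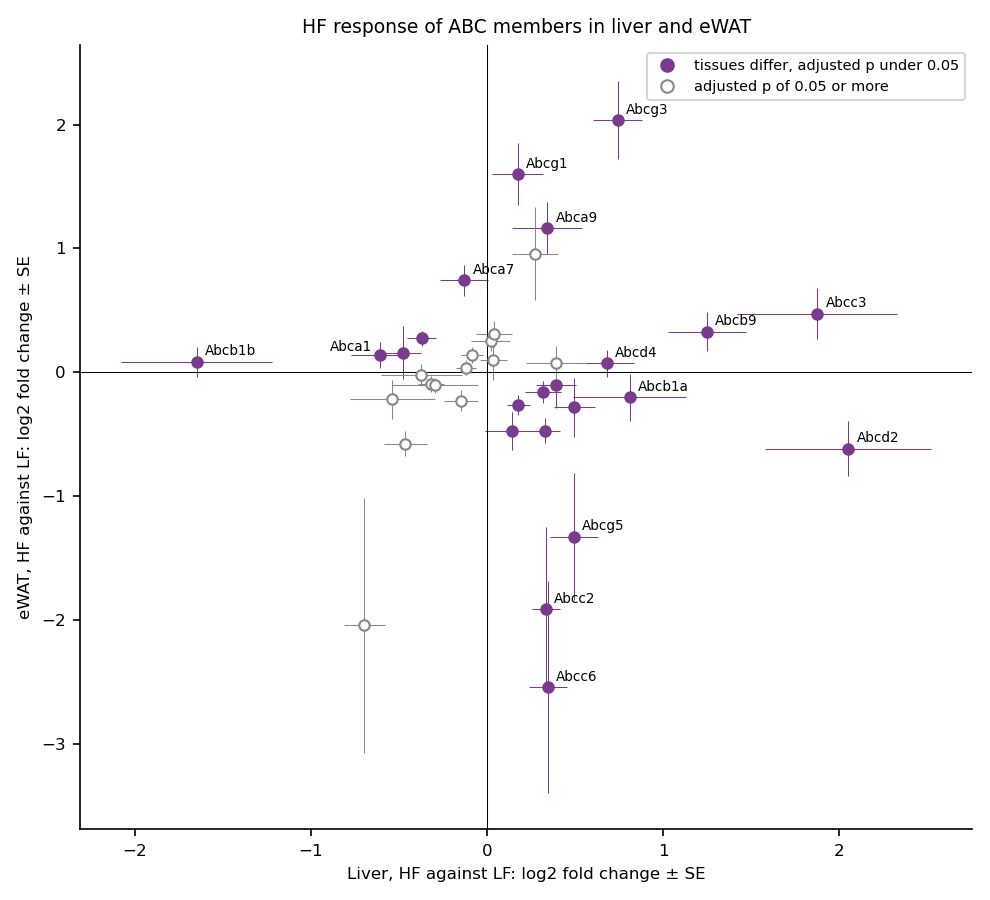
Log2 fold change ± SE of HF against LF in liver (horizontal) and in eWAT (vertical) for members in both tables; filled points differ between the tissues at an adjusted p under 0.05, and filled points more than 0.55 from 0 on either axis are named. Abcd2 lies at the lower right, Abcg3 and Abcg1 lie at the top, and Abcc6, Abcb11, Abcc2 and Abcg5, close to 0 CPM in eWAT, lie at the bottom.

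Between the tissues themselves on LF, 22 members were higher in liver and 13 in eWAT among 38, beside 78.7% of all genes (38.3% of all genes higher and 40.4% lower). The calls numbered 31 without liver LF libraries 1 to 4 (69.5% of all genes) and 34 without the 6 eWAT libraries (74.5%). With TMM factors computed within each tissue the split was 14 higher in liver and 19 higher in eWAT. This scaling moved the median over all genes to -0.76, against -0.02 with joint factors. On the joint scale Abca6 was at 124 ± 2.90 CPM in liver and 6.38 ± 1.25 CPM in eWAT (mean ± SD, n = 6 each), 4.28 ± 0.13 (adjusted p = 1.15e-23), and Abcd3 at 622 ± 108 CPM in liver and 84.7 ± 5.53 CPM in eWAT, 2.88 ± 0.11 (adjusted p = 1.32e-21). Abcc5 was at 9.49 ± 0.504 CPM in liver and 69.4 ± 4.64 CPM in eWAT, -2.87 ± 0.10 (adjusted p = 5.31e-23), and Abcc1, an exporter of glutathione conjugates, at 3.55 ± 1.27 CPM in liver and 54.2 ± 3.76 CPM in eWAT, -3.93 ± 0.17 (adjusted p = 2.43e-20). The liver exporters Abcb11, Abcc2 and Abcc6 differed by 9.12, 8.37 and 7.67, and Abcd2 by -6.10, each larger than the shift between scalings. Abcd4 and Abcg3 did not pass between tissues (-0.15 and 0.18).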

How the data were processed

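RNA of liver and eWAT was sequenced in 36 libraries. The submitters' processing notes name STAR, without a version, and GRCm38.p6. Not given in the sources used here are the counting tool, annotation and strand. The authors deposited whole-number counts per gene for each tissue, not normalized, with genes kept at a CPM above 0.5 in at least 6 of 18 libraries (checked on the tables). The deposited RPKM tables were not used, because the gene lengths they imply differ between libraries.

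Counts were fitted per tissue with edgeR 4.0.16 (R 4.3.3; TMM factors, robust quasi-likelihood F test, 3 diets, no block), with Benjamini-Hochberg adjustment over all genes at 0.05. Differences between tissues came from 1 fit of 13206 genes. Symbols and exon lengths came from GENCODE M21. The steps were tested on simulated data. Alternatives were other scaling factors, filters and fits, DESeq2 1.42.0, limma 3.58.1 voom, the replicate block, and omitted libraries.

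The members, gene lists and library omissions were chosen with earlier results of these data known. Genes named were a fixed set of bile, sterol and peroxisomal members, up to 8 called members with the smallest p per diet comparison, up to 4 per tissue difference and up to 3 per list of partner genes. Other members and partners named were chosen after their values were seen. Results for a few genes are not reported here, and counts of members and list genes include them.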

Additional observations from a re-analysis of the deposited data

Results flagged for a closer look

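Among 120 groups of 6 libraries tested, 6 held a library far from the others, and chance gives about 1 in 20. In liver, Abcb1a was at 5.79 CPM in HF library 1 (others 1.49 to 3.02), Abcb4 at 388.5 CPM in HFLF library 4 (others 241.5 to 296), Abcd4 at 37.6 CPM in HF library 2 (others 20.4 to 26.5) and Abcg3 at 1.98 CPM in LF library 4 (others 1.47 to 1.62). In eWAT, Abcc9 was at 32.9 CPM in LF library 4 (others 47.8 to 53.7) and Abcg2 at 82.4 CPM in LF library 3 (others 26.9 to 40.4).

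Other results were marked because the response differed between the tissues in the fit over both (liver minus eWAT log2 fold change, edgeR). For HF against LF these were Abcb8 (0.85), Abce1 (-0.59), Abcd2 (2.72) and Abcc10 (0.50). For HFLF against LF they were Abcd3 (0.60), Abcc6 (2.67), Abcc10 (0.39) and Abcb8 (0.46), of which none passed without liver LF libraries 1 to 4 or without the 6 eWAT libraries. For HFLF against HF they were Abca5 (-0.78), Abca7 (0.62), Abcb1a (-1.25) and Abcb8 (-0.40). Without the 6 eWAT libraries, Abca5 (-0.59, adjusted p = 0.0706), Abcb1a (-1.13, adjusted p = 0.0645) and Abcb8 (-0.38, adjusted p = 0.0545) no longer passed by edgeR, and without liver LF libraries 1 to 4 all 4 passed.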

How the results depend on the processing

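Counts of called members were within 1.5 times the reported count under scaling factors, filters, fits of 2 groups, the replicate block and robust estimation, with these exceptions. Without liver LF libraries 1 to 4 the count was 3 in HF against LF (22 with all), 0 in HFLF against LF (15) and 7 in HFLF against HF (4), and for the tissue differences 13 in HF against LF (22) and 0 in HFLF against LF (8). Without the 6 eWAT libraries it was 11 in HF against LF (18) and 2 in HFLF against HF (10), and for the tissue differences 0 in HFLF against LF and 2 in HFLF against HF (5). DESeq2 called 1 member in eWAT HFLF against LF, and limma voom 5 tissue differences in HFLF against LF. Fewer libraries enter the first 2 settings, and the cause was otherwise not tested.

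Omitting 1 library gave 20 to 24, 11 to 17 and 1 to 5 members in liver (HF against LF, HFLF against LF, HFLF against HF) and 11 to 18, 0 to 0 and 8 to 15 in eWAT. Tissue differences were not refitted without single libraries. With the replicate block the counts were 22, 15 and 3 in liver and 15, 0 and 9 in eWAT. Within a tissue, same-numbered libraries of different diets did not deviate together throughout (r of -0.363 to 0.434 in liver and -0.341 to 0.580 in eWAT), so the numbers are not used as pairs there. Liver and eWAT libraries of the same diet and number were not checked this way, and the joint edgeR fit takes them as separate. With these as blocks in limma voom, tissue differences numbered 20 in HF against LF, 6 in HFLF against LF and 6 in HFLF against HF.

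Among the genes named by the rule, and for Abcb11 in eWAT, some differences between diets turned sign, none of them called. In liver these were Abcg1 in HFLF against LF (0.0212 with upper-quartile factors), Abcc6 in HFLF against HF (0.0021 with the replicate block), and without LF libraries 1 to 4 in HFLF against LF Abca1 (0.20), Abcc3 (-0.28) and Abcc4 (0.0219). In eWAT they were Abcd3 in HFLF against HF (-0.0044 with size factors of the DESeq2 type, -0.0045 by DESeq2), Abcd2 in HFLF against LF (0.0102 by voom, 0.0286 with the block), and without the 6 libraries Abcb1a (-0.0238) and Abcg2 (0.0384) in HFLF against LF and Abcb11 in HF against LF (0.65, against -2.04 with all). With 1 library omitted, HFLF against LF in liver ranged over -0.29 to 0.0776 for Abcb1a, -0.0423 to 0.12 for Abcb4 and -0.0956 to 0.0482 for Abcg1, and HFLF against HF over -0.0604 to 0.25 for Abcc4, -0.0502 to 0.0263 for Abcc6 and -0.0048 to 0.15 for Abcg5. In eWAT HF against LF ranged over -0.37 to 0.0942 for Abcg2 and -0.0083 to 0.17 for Abcc9, HFLF against LF over -0.32 to 0.13 for Abcg2 and -0.11 to 0.0901 for Abcd2, and HFLF against HF over -0.04 to 0.0846 for Abcd3 and -0.0073 to 0.10 for Abcg2. Members not named by the rule in a comparison crossed 0 too, such as Abca5 in HF against LF livers (-0.0182 to 0.22). Of the single-gene values of genes named by the rule, 1086 kept direction and side of the threshold when 1 library was omitted, 34 lost the call and 9 gained it. Under the other settings 999 did, 48 lost the call and 15 gained it. For members under 1 CPM the depth limits any difference to a large one.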
